A study of Mus musculus with 2 samples.

Results

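The 10 genes described here encode 6 contactins (*Cntn1* to *Cntn6*) and 4 IgLON proteins (*Lsamp*, *Ntm*, *Opcml* and *Negr1*). They were taken by name from the 32285 genes of the count matrices, and all 10 were found in both matrices. UMIs (unique molecular identifiers, by which each captured transcript is counted once) were summed per embryo and marker-defined cell class and scaled by the UMIs of all genes in that sum, as CPM. Cells of the cortex of 2 mouse embryos at E16.5, numbered 4 and 5, were measured by 10x Genomics 3′ sequencing, with 1 library per embryo. Both carry the genotype WT and serve as controls of a line that the design text spells EomesMllt3 and the titles EoMltt3, from Eomes-Cre mice. The strain of the E16.5 cortices was given as C57BL/6J. The source is named as brain hemispheres, the protocol names the cortex and papain dissociation, and the sex of the embryos is not given in the labels. There is 1 condition, so the comparisons below are between cell classes of the same 2 embryos, and an SD over n = 2 embryos includes the spread between libraries.

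Contactins and IgLON proteins are members of the immunoglobulin superfamily that are held on the outer face of the cell membrane by a lipid (GPI) anchor and have no cytoplasmic part of their own. They bind each other and partner proteins such as the L1 family, the contactin-associated proteins (Cntnap) and receptor tyrosine phosphatases, in the same membrane or across the gap between cells. In the developing brain they are known for their parts in axon growth and bundling, migration and synapse formation. CNTN2, also called TAG-1, is a classic marker of growing cortical axons, and LSAMP was named after the limbic system, where it was found.

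Of the 10 genes, 9 are long. On mm10, the build that the submitters' processing notes name, the RefSeq annotation of GRCm38.p6 places *Lsamp* at chr16:39984254-42181679 (2197 kb), *Negr1* at chr3:156561790-157316464, *Cntn1* at chr15:92051152-92341967 and *Cntn5* at chr9:9634223-10904775. *Opcml* (chr9:27790716-28925410, + strand) and *Ntm* (chr9:28994749-29963269, − strand) are neighbours whose 3′ ends face each other across 69.3 kb with no protein-coding gene between them. *Cntn3* (chr6:102163304-102564614), *Cntn6* (chr6:104492662-104863406) and *Cntn4* (chr6:105677632-106700141) lie in a row on chromosome 6, with *Chl1* as the only protein-coding gene between *Cntn3* and *Cntn6* and none between *Cntn6* and *Cntn4*. *Cntn2* is the short one, at chr1:132509425-132543251 (33.8 kb). Other annotated genes overlap 8 of the 10 loci, all but those of *Cntn2* and *Cntn4*. Whether reads in introns were counted is not given in the sources used here, and the counts of a gene and of one that overlaps it are uncertain where the counting could not tell them apart.

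*Lsamp*, *Ntm* and *Cntn2* were the members higher in upper-layer than in layer 6 neuron-like cells (below), and 250 bases before an annotated start of each are shown so that the upstream sequence of this trio can be seen side by side. They come from RefSeq on GRCm38.p6, 5′ to 3′ on the gene's strand, and capitals mark the motif CAGATG or its reverse complement CATCTG, the E-box bound by Neurogenin and NeuroD factors.
Lsamp, the second start, chr16:41532576-41532825, + strand: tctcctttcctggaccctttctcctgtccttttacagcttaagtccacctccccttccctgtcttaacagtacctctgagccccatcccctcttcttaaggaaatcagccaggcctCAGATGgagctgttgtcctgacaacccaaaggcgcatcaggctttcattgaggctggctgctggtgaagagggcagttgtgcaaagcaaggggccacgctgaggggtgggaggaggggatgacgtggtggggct
Ntm, the second start, chr9:29412686-29412935, − strand: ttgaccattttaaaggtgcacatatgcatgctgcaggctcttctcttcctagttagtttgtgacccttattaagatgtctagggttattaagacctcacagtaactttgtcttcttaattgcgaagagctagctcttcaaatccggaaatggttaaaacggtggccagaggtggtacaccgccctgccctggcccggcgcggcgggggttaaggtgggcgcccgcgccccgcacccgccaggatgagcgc
Cntn2, chr1:132542941-132543190, − strand: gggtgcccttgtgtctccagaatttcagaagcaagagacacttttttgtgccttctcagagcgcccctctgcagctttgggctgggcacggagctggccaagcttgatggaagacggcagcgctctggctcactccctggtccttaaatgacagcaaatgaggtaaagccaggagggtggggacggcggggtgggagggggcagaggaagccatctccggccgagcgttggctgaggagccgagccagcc
Only the *Lsamp* window held the motif, which is found in 14.4% of 32851 such windows in the table. It was in 1 of the 16 windows of the 10 members, and the POU octamer ATGCAAAT (reverse ATTTGCAT) was in none of them, against 1.60% of all windows. The share of G and C was 56.4%, 53.6% and 61.2% in these windows, against a median of 52.4%. *Lsamp* and *Ntm* each have another annotated start, whose window is not shown and held neither motif. The starts shown for *Lsamp* and *Ntm* lie inside the genes as placed above. The 3′ counts do not show which start was used.

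The matrices held 12825 barcodes with 124318613 UMIs in embryo 4 and 12289 barcodes with 117679925 UMIs in embryo 5, and 46 barcodes were shared by both. After filters on detected genes, mitochondrial counts and doublets, 9932 and 10416 cells were left, with medians of 10008 and 8835 UMIs. Clustering without the 10 members and 27 partner genes gave 32 clusters, of which 20 were named into 13 classes by marker genes, and 33.9% and 34.1% of the cells stayed unnamed. Of these classes, 12 were summed in both embryos and entered the tests, and a cluster of 48 meningeal fibroblast-like cells came from embryo 5 alone. In each of the 10 neuron, progenitor and pericyte-like classes, all class markers were above the rest of the cells in both embryos. The 2 other sums went against their names in embryo 5. Cluster 28, called microglia-like, held 87 cells of embryo 4 with all 9 microglial markers above the rest (5022 CPM in sum), but its 38 cells of embryo 5 had 8 of the 9 markers at 0 (22.7 CPM in sum). Cluster 25, called erythroid cell-like, held 112 cells with 49341 CPM of erythroid markers in embryo 4 and 77 cells with 1423 CPM in embryo 5, where the other cells had 1883 CPM. These clusters are named by number below, and calls and correlations that change without them are given both ways.

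Among the named classes, to which the next paragraphs are limited, the highest level of *Lsamp* and *Ntm* was in upper-layer, that of *Opcml* in layer 6 and that of *Negr1* in CGE interneuron-like cells. *Lsamp* reached 5677 CPM in embryo 4 and 5719 CPM in embryo 5 in upper-layer neuron-like cells (5698 ± 29.5, SD, n = 2). It followed in Cajal-Retzius neuron-like cells with 2342 and 2946 CPM, in layer 6 neuron-like cells with 1758 and 1827 CPM, and in immature excitatory neuron-like cells with 1672 and 1736 CPM. The values of the embryos did not overlap between any neighbours among these 4 classes. In LGE-type GABAergic neuron-like cells the embryos lay far apart, with 1936 CPM in embryo 4 and 917 CPM in embryo 5, and overlapped with the layer 6 and immature excitatory classes. *Lsamp* was lower in progenitors and interneurons: 415 and 415 CPM in radial glia-like cells (RGC, the stem cells of the cortex), 104 and 99.9 CPM in intermediate progenitor-like cells (IPC, their dividing daughters), 313 and 289 CPM in MGE interneuron-like and 96.0 and 76.9 CPM in CGE interneuron-like cells. Pericyte-like cells had 111 and 35.5 CPM, with 27 of the 67 UMIs of embryo 4 in 1 cell.

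**Figure D1:**
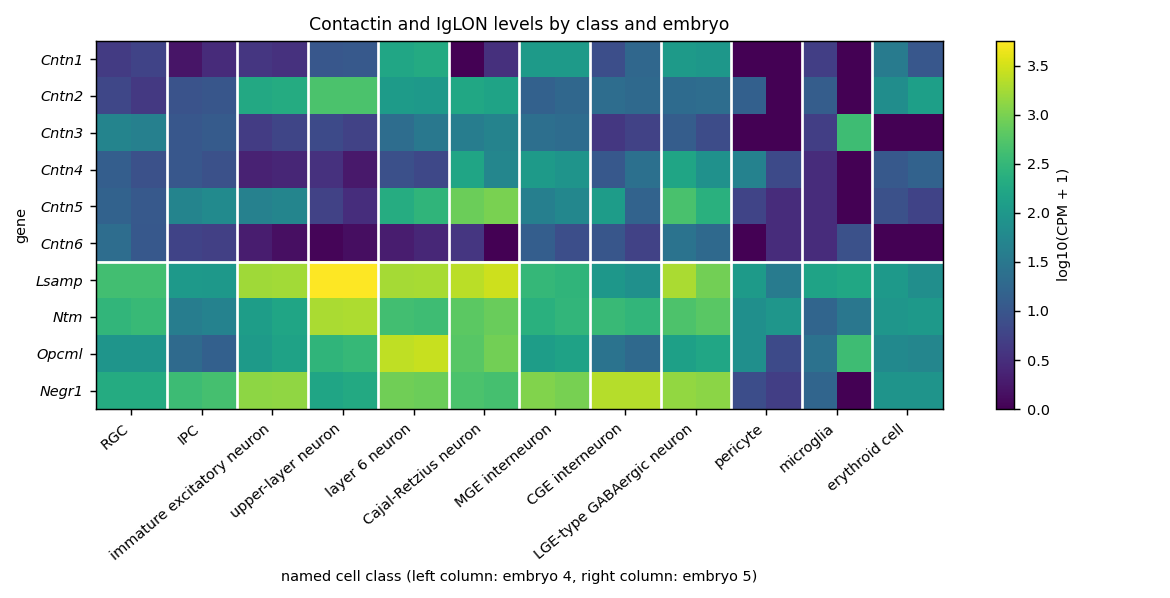
Heat map of the level of each of the 10 genes (rows; contactins above the white line, IgLON genes below) in 12 cell classes (column pairs; left embryo 4, right embryo 5), as log10(CPM + 1). *Lsamp* stood at 5677 and 5719 CPM in upper-layer neuron-like cells, *Opcml* at 2478 and 2786 CPM in layer 6 neuron-like cells and *Negr1* at 2193 and 2169 CPM in CGE interneuron-like cells. Single cells set *Cntn3* and *Opcml* in the microglia-like sum of embryo 5.

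*Ntm*, the gene of neurotrimin, was likewise highest in upper-layer neuron-like cells, at 1890 and 1946 CPM (1918 ± 39.4, SD, n = 2), and next in Cajal-Retzius neuron-like cells at 642 and 800 CPM. Layer 6 neuron-like cells had 386 to 410 CPM, and MGE and CGE interneuron-like cells 244 to 355 CPM. RGC-like cells held 298 and 335 CPM, IPC-like cells 37.5 and 45.7 CPM, and immature excitatory neuron-like cells 121 and 158 CPM. The IPC-like value of *Ntm* was thus below those of the RGC-like and of every neuron class sum, but 2 of the 3 clusters of the immature class were lower still (8.47 to 15.5 CPM, below). The meningeal fibroblast-like cells of embryo 5 had 929 CPM, with a UMI in 85.4% of the 48 cells, against 72.7 and 94.6 CPM in pericyte-like cells.

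*Opcml* was highest in layer 6 neuron-like cells, at 2478 and 2786 CPM (2632 ± 218, SD, n = 2). Cajal-Retzius neuron-like cells followed with 597 and 912 CPM and upper-layer neuron-like cells with 284 and 326 CPM, and these 3 classes did not overlap. RGC-like cells had 91.5 CPM in each embryo, and IPC-like cells 18.9 and 13.2 CPM. In cluster 28 of embryo 5, all 52 UMIs of *Opcml* came from 1 cell, so its 393 CPM there describe that cell alone.

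*Negr1* had its highest level in CGE interneuron-like cells, at 2193 and 2169 CPM (2181 ± 17.1, SD, n = 2). LGE-type GABAergic (1423 and 1268 CPM) and immature excitatory neuron-like cells (1297 and 1369 CPM) overlapped with each other and lay above MGE interneuron-like cells (982 to 1103 CPM). Layer 6 neuron-like cells had 884 and 810 CPM, while upper-layer neuron-like cells had only 160 and 190 CPM, below the 204 and 205 CPM of RGC-like cells. In pericyte-like cells it was near the floor, at 6.61 and 3.94 CPM, where 3 UMIs are worth 4.96 and 5.91 CPM.

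Among the contactins, *Cntn2* had its highest class level in upper-layer neuron-like cells, at 489 and 497 CPM (493 ± 5.75, SD, n = 2). Immature excitatory neuron-like cells had 181 and 204 CPM, Cajal-Retzius neuron-like cells 151 to 175 CPM and layer 6 neuron-like cells 109 to 114 CPM, with no overlap between these classes. GABAergic and progenitor classes had between 3.15 and 21.0 CPM. A UMI of *Cntn2* was seen in 97.2% of upper-layer neuron-like cells of embryo 4 (exact 95% interval 95.6 to 98.3%) and in 94.6% of embryo 5 (92.7 to 96.0%), at medians of 10471 and 9168 UMIs per cell. In pericyte-like cells, at medians of 10553 and 10449 UMIs, 1 of 52 cells (1.92%) and 0 of 45 cells held a UMI. The 0 UMIs of embryo 5 allow up to 5.91 CPM, the worth of 3 UMIs. With every cell thinned to 2000 UMIs, 64.8% and 57.7% of the upper-layer neuron-like cells kept a UMI. The intervals cover counting error only.

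*Cntn1*, the contactin that binds tenascin-R and the phosphatase Ptprz1, was found in layer 6 neuron-like cells at 164 and 197 CPM (181 ± 23.0, SD, n = 2), in MGE interneuron-like cells at 110 and 112 CPM and in LGE-type GABAergic neuron-like cells at 96.3 to 109 CPM. All other neuron and progenitor classes were at 17.0 CPM or less. No UMI of *Cntn1* was seen in pericyte-like cells of either embryo, which at 3 UMIs allows up to 4.96 and 5.91 CPM. A UMI was counted in 65.6% (61.5 to 69.6%) and 68.1% (64.1 to 71.9%) of layer 6 neuron-like cells.

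*Cntn5* was, of the named classes, highest in Cajal-Retzius neuron-like cells, the reelin-secreting neurons of the cortical surface, at 828 and 1001 CPM (915 ± 122, SD, n = 2). LGE-type GABAergic neuron-like cells (483 and 238 CPM) overlapped with layer 6 neuron-like cells (211 and 289 CPM), and upper-layer neuron-like cells had 4.54 and 2.14 CPM. IPC-like cells (48.9 and 62.3 CPM) were above RGC-like cells (14.0 and 10.2 CPM). Although *Cntn5* had over 200 CPM in layer 6 neuron-like cells, only 21.8% (18.4 to 25.5%) and 21.5% (18.2 to 25.1%) of those cells held a UMI, against 71.4% and 83.9% of Cajal-Retzius neuron-like and 5.77% and 2.22% of pericyte-like cells. In CGE interneuron-like cells of embryo 4, 65 of 117 UMIs came from 1 cell, and the class stood at 117 CPM in that embryo against 14.7 CPM in the other.

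*Cntn4* was highest in 3 of the named classes: 162 and 78.8 CPM in LGE-type, 159 and 52.2 CPM in Cajal-Retzius and 109 and 88.1 CPM in MGE interneuron-like cells, which overlapped in order. CGE interneuron-like cells, also GABAergic, had 10.0 and 23.8 CPM, which overlapped with RGC-like cells (12.5 and 7.58 CPM), and excitatory classes were at 7.21 CPM or less. Cluster 28 apart, *Cntn3* was highest of the named classes in RGC-like cells at 48.9 and 42.8 CPM, overlapping with Cajal-Retzius neuron-like cells at 38.7 and 47.7 CPM. It was also found at 21.0 and 31.5 CPM in layer 6 and at 22.3 and 20.6 CPM in MGE interneuron-like cells. In cluster 28 of embryo 5, 51 of its 52 UMIs came from 1 cell. *Cntn6* stayed low in every class, with 25.7 and 18.1 CPM in LGE-type and 21.4 and 9.70 CPM in RGC-like cells as its highest levels, which overlapped.

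The classes were then compared in 1 edgeR quasi-likelihood fit over the 12 classes (24 sums, 12 residual degrees of freedom), with log2 fold changes given with their SE and p-values adjusted over all 15094 genes tested by the Benjamini-Hochberg method. All 10 members passed the filter on low counts. A gene was called where this adjusted p was under 0.05. Where several classes were joined on 1 side, that side was the mean of their fitted log2 levels. A call therefore need not hold in each class. Since both classes of a comparison come from the same 2 embryos, p-values measure the spread between these 2 libraries, and comparisons share sums.

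The first comparison asked how neurons of the excitatory lineage (immature, upper-layer and layer 6 neuron-like cells, averaged) differ from their RGC-like and IPC-like progenitors. Of the members, 6 were higher and 3 lower in neurons, where 34.9% and 34.7% of all genes were. In this average all 4 IgLON genes rose: *Lsamp* by 3.85 ± 0.19 (SE, edgeR adjusted p = 5.68e-15), *Opcml* by 3.81 ± 0.29, *Ntm* by 2.25 ± 0.11 and *Negr1* by 1.21 ± 0.10 on the log2 scale. The contactins divided. *Cntn2* rose by 5.36 ± 0.14 and *Cntn1* by 3.09 ± 0.21, whereas *Cntn6* (−3.44 ± 0.34), *Cntn4* (−1.74 ± 0.34) and *Cntn3* (−1.17 ± 0.32) were lower in neurons. *Cntn5* had 0.59 ± 0.27 and was not called (adjusted p = 0.055). The rises did not hold in every neuron class. *Ntm* was lower in immature excitatory (121 and 158 CPM) than in RGC-like cells (298 and 335 CPM). *Negr1* was lower in upper-layer (160 and 190 CPM) than in RGC-like cells (204 and 205 CPM). *Cntn1* was lower in immature excitatory (2.88 and 2.43 CPM) than in RGC-like cells (3.51 and 4.75 CPM). The fall of *Cntn3* did not hold throughout either. In layer 6 neuron-like cells it was at 21.0 and 31.5 CPM, below RGC-like (48.9 and 42.8 CPM) but above IPC-like cells (9.62 and 11.1 CPM). The median log2 fold change was 3.03 over the IgLON genes, −0.29 over the contactins and −0.01 over all genes. *Cntn6* had 1 and 3 UMIs in upper-layer neuron-like cells, and its value was −2.48 without embryo 4. *Cntn3* and *Cntn4* turned positive with doublets kept, and *Negr1* turned negative at a clustering resolution of 2.

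Within the progenitors, 3 members were higher and 6 lower in IPC-like than in RGC-like cells, against 18.1% and 20.5% of all genes. *Ntm* fell by 2.87 ± 0.17, *Opcml* by 2.45 ± 0.43, *Lsamp* by 1.97 ± 0.26, *Cntn3* by 2.09 ± 0.43, *Cntn6* by 1.73 ± 0.36 and *Cntn1* by 1.68 ± 0.42. *Cntn5* (2.25 ± 0.34), *Cntn2* (1.07 ± 0.27) and *Negr1* (1.07 ± 0.15) were higher in IPC-like cells. The IPC-like clusters differed in *Negr1*, with 225 and 236 CPM in cluster 3, 760 and 924 CPM in the cycling cluster 20 and 396 and 169 CPM in cluster 30. The cycling RGC-like cluster 12 had 280 and 263 CPM, above cluster 3. The *Negr1* call held in all 14 alternatives run with a test. *Cntn4* was not called (−0.16 ± 0.40). Thus 3 of the 4 IgLON genes were lower in IPC-like cells than in RGC-like cells and higher in the average of the neuron classes than in the mean of these progenitors. With doublets kept, *Cntn1*, *Lsamp* and *Opcml* were no longer called (−0.85, −1.21 and −1.31). Without embryo 4, *Cntn6* had −1.10.

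The immature excitatory class joined 3 clusters in which the members differed widely. Cluster 6, led by *Kif26b* and *Eomes*, had *Negr1* at 1884 and 1972 CPM, *Lsamp* at 405 and 372 CPM and *Cntn2* at 20 and 19.6 CPM. Cluster 8, led by *Unc5d*, had *Negr1* at 1885 and 2131 CPM and *Lsamp* at 1586 and 1686 CPM. In cluster 1, led by *Nrp1*, *Negr1* was at 431 and 449 CPM and *Lsamp* at 2760 and 2814 CPM. *Ntm* was at 8.47 to 15.5 CPM in clusters 6 and 8 and at 278 and 362 CPM in cluster 1. *Cntn5* stood the other way, at 94.0 and 115 CPM in cluster 6 and at 5.27 and 2.87 CPM in cluster 1. Set beside the upper-layer class, the clusters could be ordered 6, 8, 1 and upper-layer by a growing level of *Lsamp* and *Cntn2*, in which *Negr1* stayed level from 6 to 8 and was lower in 1 and lower again in the upper-layer class. The order is by level and no time was measured.

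**Figure D2:**
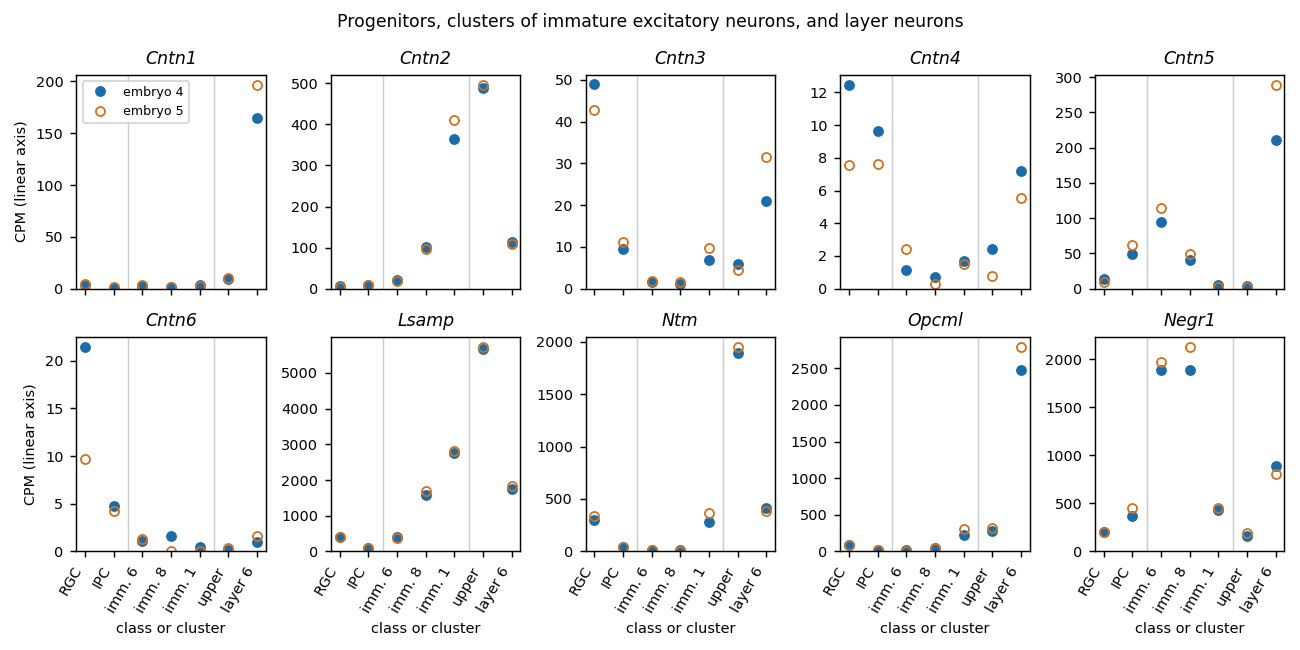
CPM (linear axes from 0) of each member in RGC-like and IPC-like cells, in clusters 6, 8 and 1 of the immature excitatory class (imm.), and in upper-layer and layer 6 neuron-like cells; filled points are embryo 4 and open points embryo 5. *Negr1* stood at 1884 to 2131 CPM in clusters 6 and 8 and at 160 and 190 CPM in the upper-layer class, where *Lsamp*, *Ntm* and *Cntn2* had their highest points.

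Between layers, 6 members were higher and 3 lower in layer 6 than in upper-layer neuron-like cells, where 18.3% and 15.4% of all genes were. *Cntn5* had the largest difference of the members (6.33 ± 0.43), followed by *Cntn1* (4.27 ± 0.19, adjusted p = 3.17e-14), *Opcml* (3.2 ± 0.40), *Cntn3* (2.41 ± 0.54), *Negr1* (2.37 ± 0.15) and *Cntn4* (2.10 ± 0.70). *Lsamp* (−1.57 ± 0.25), *Cntn2* (−2.05 ± 0.16) and *Ntm* (−2.18 ± 0.16) were higher in the upper-layer class. The embryos did not overlap in any of these 9 genes, which were called from the same values. The share of all genes without overlap was not counted, so this adds no support to the calls. *Cntn6* was at 1.64 CPM or less in both classes and was not called (2.26 ± 0.94, adjusted p = 0.069), but was with the embryo as a block (2.25, adjusted p = 0.030). The *Cntn4* call held in 8 of the 12 alternatives run with a test, and *Cntn5* had 5.52 without embryo 5.

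Interneurons and excitatory neurons, which come from different progenitor zones, were set against each other next (MGE and CGE against the 3 excitatory classes). Of the members, 4 were higher and 4 lower in interneurons, against 16.2% and 18.9% of all genes. *Lsamp* (−4.13 ± 0.20), *Cntn2* (−3.79 ± 0.16), *Opcml* (−3.23 ± 0.33) and *Ntm* (−0.80 ± 0.11) were lower in interneurons. *Cntn4* (3.93 ± 0.55), *Cntn6* (3.48 ± 0.53), *Negr1* (1.25 ± 0.09) and *Cntn1* (0.97 ± 0.26) were higher. Some classes went against these averages. *Cntn1* was higher in layer 6 (164 to 197 CPM) than in MGE (110 to 112 CPM) or CGE cells (7.0 to 17.0 CPM). Immature excitatory cells had less *Ntm* (121 to 158 CPM) than both interneuron classes (244 to 355 CPM). They had more *Negr1* (1297 to 1369 CPM) than MGE cells (982 to 1103 CPM), and overlapped with MGE cells in *Opcml*. *Cntn3* (−0.04 ± 0.78) and *Cntn5* (0.61 ± 0.29) were not called. *Ntm* kept its call in 9 and *Cntn1* in 10 of 14 alternatives, the former turning positive at resolution 0.5, with at least 500 detected genes and with at most 5% mitochondrial counts, and the latter negative with doublets kept. *Cntn6* had 2.35 without embryo 4 and *Cntn4* 3.2 without embryo 5.

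Between the interneuron classes, 4 members were higher and 1 lower in MGE than in CGE interneuron-like cells, against 3.33% and 3.19% of all genes. *Cntn1* (3.31 ± 0.32, adjusted p = 7.52e-08), *Opcml* (2.65 ± 0.60), *Cntn4* (2.65 ± 0.51) and *Lsamp* (1.86 ± 0.30) were higher in the MGE class, and *Negr1* (−1.0 ± 0.15) was lower. *Cntn1* stood at 110 and 112 CPM against 7.0 and 17.0 CPM, and its difference was 4.01 without embryo 5. *Cntn4* had 1.91 without embryo 4 and 3.51 without embryo 5. *Cntn3* had 20.6 to 22.3 CPM against 3.0 to 4.53 CPM (3 and 4 UMIs) and was not called (2.59 ± 1.17, adjusted p = 0.26), but was in a fit without clusters 25, 28 and the pericyte-like class (2.61 ± 0.49, adjusted p = 0.0011). Under looser naming, in which a cluster of cycling cells joined the CGE class, *Lsamp* (−0.045) and *Negr1* (0.070) changed sign.

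Cajal-Retzius neuron-like cells had 4 members higher and 3 lower than the average of the excitatory classes, against 17.5% and 18.8% of all genes. *Cntn4* (5.21 ± 0.41), *Cntn5* (4.48 ± 0.25), *Cntn3* (2.08 ± 0.59) and *Ntm* (0.34 ± 0.13, adjusted p = 0.046) were higher, the last in only 10 of 14 alternatives. At 642 and 800 CPM, *Ntm* was below the upper-layer class (1890 and 1946 CPM). It was above the layer 6 class (386 to 410 CPM) and the immature class (121 and 158 CPM). *Cntn4* had 4.17 without embryo 4. *Cntn1* was called lower, with 0 UMIs in embryo 4 and 2 UMIs in embryo 5, where 3 UMIs would be 2.90 and 3.40 CPM. Its fitted value (−4.25 ± 0.73, with −3.03 and −5.63 without embryos 4 and 5) rests on the prior count and is no bound, and immature excitatory neuron-like cells were near that floor as well (2.88 and 2.43 CPM). *Cntn2* (−0.69 ± 0.16) and *Negr1* (−0.57 ± 0.13) were lower by less, and turned positive at resolution 0.5 and at resolution 2, respectively. By class, *Cntn2* (151 to 175 CPM) was above the layer 6 class (109 to 114 CPM). *Negr1* (448 to 492 CPM) was above the upper-layer class (160 to 190 CPM). *Opcml* (0.42 ± 0.31), *Lsamp* (−0.23 ± 0.21) and *Cntn6* (0.98 ± 1.26) were not called, and *Opcml* was in the fit without clusters 25, 28 and the pericyte-like class (0.43 ± 0.15, adjusted p = 0.032).

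**Figure D3:**
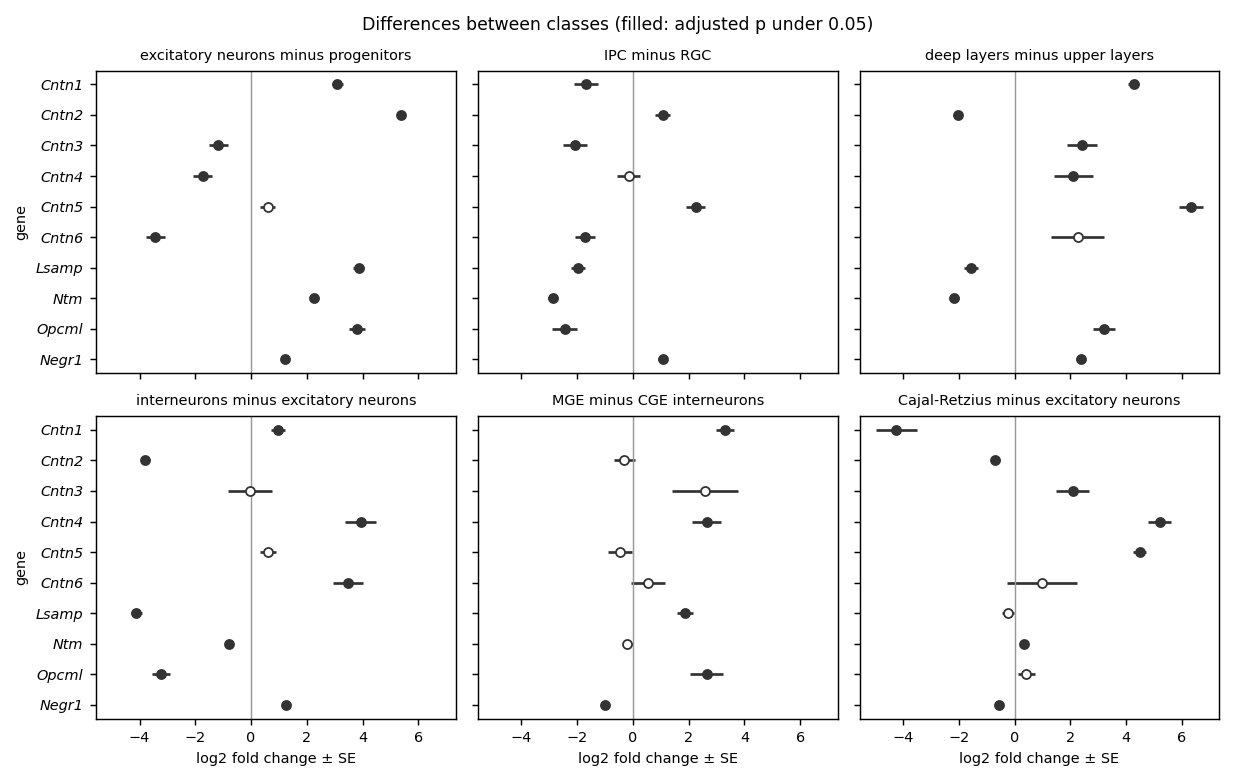
Log2 fold change (x axis) of each member (y axis) in 6 comparisons between classes, with bars of ± 1 SE from the edgeR fit; filled points had an adjusted p under 0.05. *Cntn5* lay at 6.33 in layer 6 minus upper-layer neuron-like cells (deep layers minus upper layers) and *Lsamp* at −4.13 in interneurons minus excitatory neurons.

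The share of higher calls over all genes moved with the scaling, which bears on members near 0. With total UMIs alone, 3972 genes were higher and 6676 lower in excitatory neurons than in progenitors (5262 and 5237 with TMM), 2406 and 3055 in layer 6 than in upper-layer cells (2756 and 2325), 3295 and 2040 in interneurons (2450 and 2854), and 3817 and 1572 in Cajal-Retzius neuron-like cells (2646 and 2843). The RLE factors gave 3081 and 2165 in interneurons and 3187 and 2097 in Cajal-Retzius neuron-like cells, and DESeq2 3468 and 2248, and 3529 and 2149.

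The partner list held 27 genes, all of which were tested, and log2 fold changes stand in parentheses. In excitatory neurons against progenitors, 14 rose and 7 fell (34.9% and 34.7% of all genes did), led by *Chl1* (5.13), an L1-family protein that pairs with contactins, and the extracellular ligand *Tnr* (5.12) upward and by *Notch1* (−4.86), a receptor for which contactins can be ligands, and the matrix gene *Tnc* (−4.64) downward. In IPC-like against RGC-like cells (18.1% and 20.5% of all genes), 6 were higher, with *L1cam* (1.70) and *Aplp1* (1.66) first, and 11 lower, with *Tnc* (−4.16) and *Ptprz1* (−3.10) first. In layer 6 against upper-layer neuron-like cells (18.3% and 15.4% of all genes), 11 were higher and 3 lower, with *Cntnap5b* (6.24) and *Ncam2* (4.41) at one end and *Cntnap5a* (−1.79) and *Ptprs* (−1.22) at the other. *Cntnap5b* was among the 10 leading genes of the layer 6 neuron-like cluster.

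Interneurons had 12 partner genes higher than excitatory neurons and 7 lower, against 16.2% and 18.9% of all genes. *Cntnap5c* (7.72) and *Cntnap3* (6.24), contactin-associated proteins of the neurexin superfamily, were the highest, and *Nfasc* (−2.42) and *L1cam* (−1.32), both of the L1 family, the lowest. Between MGE and CGE classes (3.33% and 3.19% of all genes) 5 were higher, led by *Cntnap3* (5.56) and *Chl1* (1.96), and 4 lower, led by *Ncam2* (−2.57) and *Ptprz1* (−2.34). Cajal-Retzius neuron-like cells (17.5% and 18.8% of all genes) had 9 higher, led by *Cntnap2* (6.20) and *Ncam2* (3.91), and 6 lower, led by *Ptprz1* (−4.46) and *Nrcam* (−2.03). *Iglon5*, the remaining IgLON gene, was higher in excitatory neurons than in progenitors (1.21 ± 0.12) and lower in Cajal-Retzius neuron-like cells than in excitatory neurons (−0.93 ± 0.28), and was not called in the other 4 comparisons.

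Patterns of the members over the 12 sums of each embryo were set beside each other as Pearson correlations of log2(CPM + 10). The sums of 1 embryo share a library and differ in depth, so these are descriptions. *Lsamp* and *Ntm* had 0.75 in each embryo, *Lsamp* and *Opcml* 0.75 and 0.78, and *Cntn2* and *Lsamp* 0.74 and 0.72, while *Cntn2* and *Cntn6* had −0.56 and −0.65. Without clusters 25 and 28, the same pairs had 0.73 and 0.76, 0.72 and 0.85, 0.82 and 0.88, and −0.63 and −0.60. Of 10492 genes with at least 20 CPM in a class, those most like each member by the lower of the 2 embryos' correlations were as follows. *Lsamp* was followed by *Nav2* (0.91), *Gm32509* and *Nfasc*, *Ntm* by *Dipk1a* (0.87), *Rnft2* and *Mical3*, *Opcml* by *Gm48091* (0.83), *Dnajc6* and *Mpp6*, and *Negr1* by *Akap6* (0.95), *Lrrc49* and *Nol4*. *Cntn1* was followed by *Plppr5* (0.94), *Gpr26* and *Grm5*, *Cntn2* by *Jakmip1* (0.91), *Trnp1* and *Bhlhe22*, *Cntn3* by *Lmln* (0.79) and *Bnc2*, *Cntn4* by *Epha6* (0.82), *Galntl6* and *Tmem200a*, *Cntn5* by *Fam189a1* (0.89) and *Mgat4c*, and *Cntn6* by *Ptch1* (0.85), *2610318N02Rik* and *Gm15398*. Without clusters 25 and 28, 12 of the 30 most alike genes were again among the 3 most alike, and none of those of *Cntn3* and *Cntn6* were. The most alike gene was then *Cd3eap* (0.91) for *Cntn3*, *Cdca7* (0.87) for *Cntn6*, *Fam229b* (0.89) for *Cntn5* and *Lrrc49* (0.95) for *Negr1*, and was as before for the other 6 members.

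The unnamed cells held further high levels of several members. Cluster 15, led by *Rspo3* and with haemoglobin genes among its leading genes, had *Ntm* at 2479 and 2766 CPM, above the upper-layer class, together with *Cntn2* at 463 and 480.5 CPM and *Opcml* at 1493 and 1739 CPM, whereas *Lsamp* was at 141 and 119 CPM and *Negr1* at 40.8 and 53.9 CPM. Cluster 18, in which *Cntn4* and *Tfap2d* are leading genes, had *Negr1* at 2402 and 2784 CPM, above the CGE class, and *Cntn5* at 615 and 490 CPM. Cluster 17, led by *Snhg11* and with *Zic1*, *Isl1* and *Lhx8* among its leading genes, had *Cntn5* at 1017 and 1137 CPM, above the Cajal-Retzius class, and *Cntn4* at 449 and 221 CPM. *Cntn1* stood in cluster 17 at 218 and 162 CPM, overlapping with the layer 6 class. It was at 116 to 161 CPM in clusters 7, 11 and 24, and at 48.2 to 101 CPM in clusters 9, 10, 15 and 18. *Cntn3* was higher than in the RGC-like class in clusters 18 (107 and 87.8 CPM), 17 (98.8 and 77.2 CPM), 24 (68.2 and 76.2 CPM) and 10 (60.6 and 56.2 CPM). *Cntn2* reached 519 and 731 CPM in cluster 26, above the upper-layer class, in 86 and 59 cells with a median of 3373 UMIs.

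*Opcml* was high in cluster 7, led by *Rgs6*, at 2646 and 2530 CPM and in cluster 10, led by *Slit3* and *Crym*, at 2210 and 2727 CPM. In cluster 10 *Lsamp* was at 423 and 328 CPM. *Ntm* was at 1336 and 1436 CPM in cluster 7, above the layer 6 class. In cluster 9, led by *Kcnq5*, it was at 1836 and 1951 CPM, overlapping with the upper-layer class. Cluster 24, led by *Il1rapl2* and *Nr4a2*, had *Lsamp* at 2972 and 3180 CPM. Cluster 11, led by *Tafa1*, had the highest mean of *Cntn6* of any cluster (59.5 and 25.0 CPM, with cluster 17 above it in embryo 5 at 33.0 CPM), with *Cntn5* at 557 and 638 CPM. Within the RGC-like class, cluster 22, led by *Ano1* and *Ankfn1*, stood apart with *Lsamp* at 1030 and 1142 CPM, *Cntn5* at 79.0 and 81.2 CPM and *Cntn6* at 52.4 and 20.7 CPM, against 329.5 and 329.3, 8.29 and 5.45, and 19.2 and 10.5 CPM in cluster 4.

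**Figure D4:**
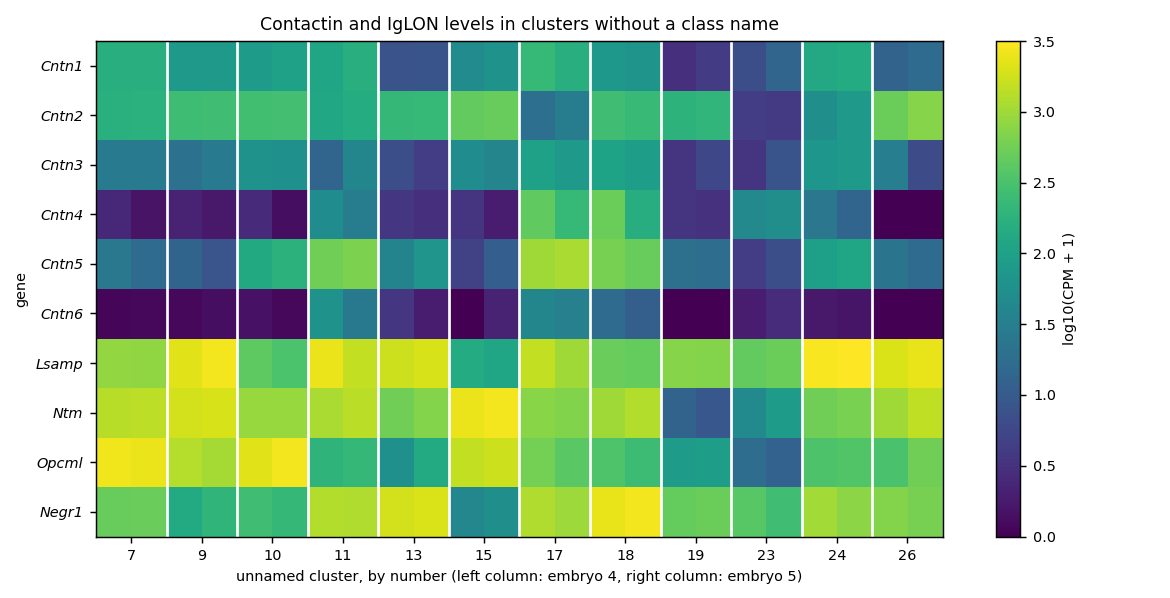
Level of each member as log10(CPM + 1) in the 12 unnamed clusters, labelled by number (left column of a pair embryo 4, right column embryo 5). *Ntm* was at 2479 and 2766 CPM in cluster 15 and *Negr1* at 2402 and 2784 CPM in cluster 18.

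*Cntn4* and its neighbour *Cntn6* differed between the embryos. Among clusters with at least 20 UMIs of the gene, *Cntn4* was higher in embryo 4 in 16 of 19 (median log2 ratio of CPM + 1 of 0.84) and *Cntn6* in 10 of 11 (0.81). Levels of *Cntn4* were 524 against 149 CPM in cluster 18 and 449 against 221 CPM in cluster 17. The other 8 members had medians between −0.17 and 0.11, *Cntn3* among them. Of the 12517 genes with at least 8 such clusters, 30 (0.240%), *Cntn4* included, had a median at least as far from 0 as *Cntn4*. The protein-coding genes measured on either side, from *Rybp* to *Itpr1*, had medians of −0.23 to 0.20. With 1 library per embryo this difference has no test, and this pair was singled out after its values were seen.

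**Figure D5:**
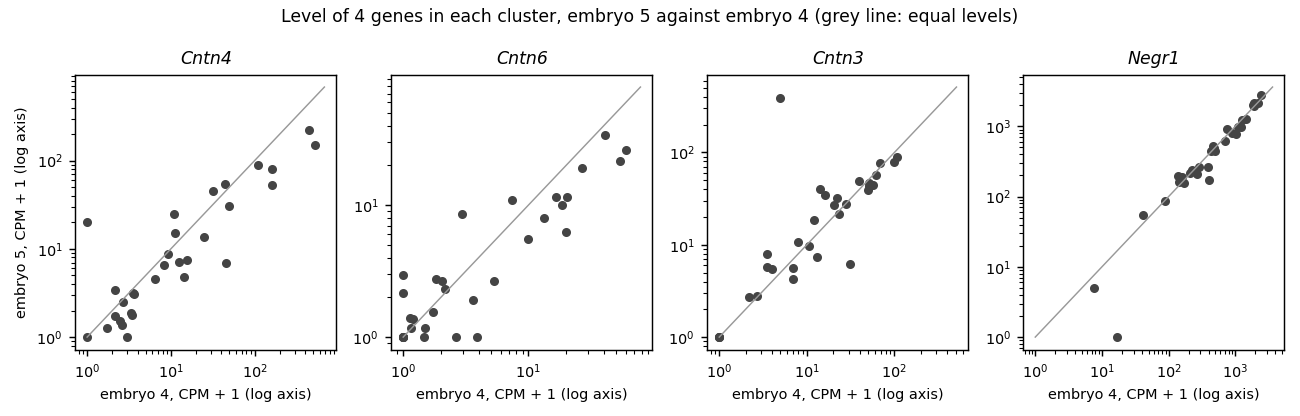
CPM + 1 of *Cntn4*, *Cntn6*, *Cntn3* and *Negr1* in each cluster in embryo 5 (y axis, log scale) against embryo 4 (x axis, log scale), with a grey line of equal levels and 1 point per cluster. *Cntn4* lay under the line in 16 of its 19 clusters with at least 20 UMIs, with 524 against 149 CPM in cluster 18, while *Negr1* lay close to the line in most clusters, and the point of *Cntn3* far above the line is cluster 28 at 393 CPM in embryo 5.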

How the data were processed

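Cortical cells of 2 embryos (E16.5) were measured with the 10x Genomics 3′ v3.1 chemistry. The authors deposited raw UMI counts per gene and barcode, not normalized. The submitters' processing notes name Cell Ranger 7.0.0 and mm10, the matrix headers give 7.1.0, and intron counting is not given in the sources used here. The members, partner and marker lists were chosen with earlier results of these data known.

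From these counts, barcodes under 1000 detected genes (1772 in embryo 4 and 765 in embryo 5) and, of the rest, barcodes over 10% mitochondrial counts (174 and 56) were dropped. Doublets were scored against 2 simulated ones per cell, and 947 and 1052 barcodes, a rate of 0.8% per 1000 cells, were taken out. Cells were scaled to 10000 UMIs, log-transformed and clustered without members and partners, using 2000 variable genes, 30 components, 20 neighbours and resolution 1 (leidenalg 0.10.2, scikit-learn 1.9.0, Python 3.11.15). For each of 18 marker classes the ratio of marker CPM (with 10 added) inside to outside a cluster was averaged on the log2 scale. The best class gave the name where that average reached 1, where 3 or more of its markers were detected in 10% of cells, and where the 10 leading genes held fewer markers of other classes than of its own, or none of others. The limit of 1 and the rule on ties were set after seeing the clusters.

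UMIs were summed per embryo and class of at least 20 cells in each embryo, with 132443 to 15954834 UMIs a sum, and fitted with edgeR 4.0.16 (R 4.3.3, TMM, filterByExpr, class as the only term). An SE was computed as |log2 fold change| divided by the root of the F statistic. Same-numbered sums come from 1 animal, so the embryo pairs them, and the deviations of classes from their means correlated across genes between −0.03 and 0.24 (median 0.04) over 66 pairs of classes. Tested on simulated counts with 200 changed genes, the fit recovered 85.5% of them for excitatory neurons minus progenitors (13995 genes) and 47% for MGE minus CGE (13980 genes). The other comparisons lay in between. Apart from the planted changes, the simulated classes had the same mean levels, a common spread and no embryo effect. These rates hold for that setting only. Exact binomial intervals are at 95%, and the floor is 3 UMIs. Named genes were all members, the 2 called partners with the largest change in each direction, and the 3 genes most like each member, of which some are not reported here. Alternatives were RLE factors, total UMIs alone, no filter, a replicate block, DESeq2 1.42.0, resolutions 0.5 and 2, 500 detected genes, 5% mitochondrial counts, doublets kept, listed genes used in clustering, no cycling clusters, each embryo alone, mean over cells and thinning. Looser naming (limit of 0.5, ties allowed) and a fit of neuron and progenitor classes alone were chosen after seeing the data.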

Additional observations from a re-analysis of the deposited data

How the results depend on the processing

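Of the 47 differences called, 28 kept their direction and their call under every alternative with a test that was run, and none changed sign in either embryo alone, where no test is possible. With 1 embryo, 9 moved by over 1.5 fold: without replicate 4 the log2 values were −2.48 for *Cntn6* in excitatory neurons minus progenitors, −1.10 for *Cntn6* in IPC minus RGC, 2.35 for *Cntn6* in interneurons minus excitatory neurons, 1.91 for *Cntn4* in MGE minus CGE, and −3.03 and 4.17 for *Cntn1* and *Cntn4* in Cajal-Retzius minus excitatory neurons. Without replicate 5 they were 5.52 for *Cntn5* in layer 6 minus upper-layer, 3.2 for *Cntn4* in interneurons minus excitatory neurons, 4.01 and 3.51 for *Cntn1* and *Cntn4* in MGE minus CGE, and −5.63 for *Cntn1* in Cajal-Retzius minus excitatory neurons. With the replicate block, *Cntn6* was called in layer 6 minus upper-layer (2.25, adjusted p = 0.030), and no other call on a member changed. The number of members called stayed within 1.5 fold in every comparison and alternative run with a test. Calls over all genes rose to 5292 from 984 in MGE minus CGE under looser naming, in which a cycling cluster joined the CGE class. Layer 6 minus upper-layer had no value at resolution 0.5 or with doublets kept, since a side of it had no named class.

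The log2 values that changed sign were these. Excitatory neurons minus progenitors: with doublets kept *Cntn3* 0.32 and *Cntn4* 1.15, and at resolution 2 *Negr1* −0.26. Interneurons minus excitatory neurons: with doublets kept *Cntn1* −0.69 and *Cntn5* −1.25, at resolution 0.5 *Cntn5* −0.96 and *Ntm* 1.12, *Ntm* 0.084 with at least 500 detected genes and 0.24 with at most 5% mitochondrial counts, and *Cntn3* 0.061 with RLE factors, 0.086 with total UMIs, 0.063 with DESeq2, 0.15 and 0.016 at resolutions 0.5 and 2, 0.28 with 500 genes, 0.13 with listed genes in clustering and 0.075 under looser naming. MGE minus CGE: with doublets kept *Cntn2* 1.71, *Cntn5* 0.36 and *Ntm* 0.50, at resolution 2 *Cntn5* 2.28 and *Ntm* 0.54, *Cntn5* 0.054 with listed genes in clustering, and under looser naming *Cntn2* 0.75, *Cntn5* 0.71, *Lsamp* −0.045, *Ntm* 0.76 and *Negr1* 0.070. Cajal-Retzius minus excitatory neurons: *Cntn2* 0.36 at resolution 0.5 and 0.041 with doublets kept, *Cntn6* −0.56 with doublets kept, *Negr1* 0.60 at resolution 2, and *Lsamp* 0.030 with total UMIs, 0.86 at resolution 0.5, 0.080 with 500 genes, 0.49 with doublets kept and 0.12 with listed genes in clustering. The causes were not tested.

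The median over all genes moved by over 0.1 from that with TMM in these cases: −0.20 from −0.01 with total UMIs in excitatory neurons minus progenitors, 0.09 from −0.03 with total UMIs and with DESeq2 in interneurons minus excitatory neurons, and 0.17 with total UMIs, 0.04 with RLE factors, 0.09 with DESeq2 and −0.24 without a filter, from −0.09, in Cajal-Retzius minus excitatory neurons. By the mean over cells, 8 of 10 members had the same highest class, *Cntn3* and *Cntn4* being the exceptions. By share of cells with a UMI, thinning left the highest class of 8 of 10 members as it was by unthinned share, with *Cntn6* and *Negr1* as exceptions. Classes of few cells limit what can be seen of *Cntn1*, *Cntn3* and *Cntn6*, many of whose sums lie under 3 UMIs.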
